A study of Homo sapiens with 4 samples.

Results

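Promoter to distal loops are chromatin contacts with a protein-coding transcript start at 1 end and none at the other. Members were loops on chromosomes 1 to 22 that spanned over 30 kb and under 500 kb, with a protein-coding start of GENCODE v44 within 1 kb of exactly 1 of their 2 anchors, each a 5 kb bin of the hg38 genome. The loop list labelled SMC1 held 9093 members among 28012 loops, and the CTCF-labelled list held 24082 among 80487. Which target each of these loop lists belongs to is in doubt. Together they made 26650 distinct members among 89163 distinct loops. Members were thus 32.5% of the first list (95% Wilson interval 31.9 to 33.0) and 29.9% of the second (29.6 to 30.2). On the edges of the span limits, 186 members of the SMC1-labelled list spanned 35 kb and 183 otherwise equal loops spanned 30 kb and stayed out. At the long edge, 9 spanned 495 kb and 8 spanned 500 kb. The counts in the CTCF-labelled list were 646 at 35 kb, 618 at 30 kb, 25 at 495 kb and 20 at 500 kb.

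HiChIP joins DNA ends that are close in the nucleus and then enriches the joined fragments with an antibody, so that contacts held by a protein of interest can be counted. Here the material was HG00731, a lymphoblastoid cell line, which is a line of B cells immortalised with Epstein-Barr virus. The line stands for 1 donor, and its growth protocol in the labels names HG00721 instead. SMC1, a subunit of cohesin, was profiled after cross-linking with formaldehyde and ethylene glycol bis(succinimidyl succinate) (FA-EGS), and CTCF after formaldehyde alone (FA). Each target had 2 replicates, merged by the authors into 1 peak list and 1 loop list, so no value below has a replicate error and no test between the lists was possible. The cross-linker and the target differ together and cannot be told apart.

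The labels of the loop lists and the peaks at their anchors did not go together. In the SMC1-labelled list, 0 of 9093 members lacked a CTCF peak at both anchors, which allows a share of up to 0.0330%, while 3 lacked an SMC1 peak at both. In the CTCF-labelled list, 0 of 24082 lacked an SMC1 peak at both anchors, which allows up to 0.0125%, and 853 (3.54%, 3.32 to 3.78) lacked a CTCF peak at both. The loop caller keeps a contact only if an anchor holds a peak of the profiled target. Under the labels, 3 members of the SMC1-labelled list and 853 of the CTCF-labelled list break this rule. With the lists exchanged, 0 in each would. The loop totals in the study's own account match those of the lists exactly. There, however, the larger total is tied to SMC1 and the smaller to CTCF, the reverse of the labels. The loop files may thus have been exchanged at deposit. Each value of the SMC1-labelled list would then belong to CTCF and the other way round. Loops were not called again from the reads, so an exchange was not tested. The lists are therefore named by their labels throughout and no direction between SMC1 and CTCF is read from them. Intervals and limits cover counting error only, and loops that share an anchor are not independent.

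Cohesin is a ring-shaped complex that is thought to extrude chromatin into loops until it meets CTCF, a zinc finger protein bound to DNA. CTCF stops cohesin mainly when its asymmetric motif faces into the loop, so the strand of the motif tells which way a site is oriented. Loops of this kind bring promoters near distant elements such as enhancers, or near boundary sites that separate neighbouring genes. A distal element often lies closer to other genes than to the gene it contacts, and those genes are then said to be skipped.

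The sequences under the distal anchors show how this orientation reads in the genome. The 4 words searched, on both strands, were 7 letters each from the core of the CTCF motif. The first was AGGGGGC. The next was AGATGGC. The remaining words differ from these at inner letters and were AGGTGGC on the one hand and AGAGGGC on the other. A word written forward points right and its reverse complement points left. The distal sites below were picked, among strongly looped genes, from windows that held a word. The windows run 50 bp to each side of the strongest CTCF summit of the anchor (hg38, plus strand), with the words in capitals. Windows taken in the same way for VPS18, ACBD4, CEBPB, MYLIP, HOXB3, FES and IRF2BP2, among others, held none. The distal site of the SMIM41 loop, the member with most read pairs, lies in an intron of NR4A1 (chr12:52025681-52025781), left of the promoter, and its word points right toward it. The site that looped to EBF1, a founding transcription factor of the B lineage, lies just past the 3′ end of that gene (chr5:158695666-158695766), also left of the promoter and pointing toward it. The sites of SEMA6A (chr5:116948057-116948157) and VEGFA (chr6:44074680-44074780) lie right of their promoters in no protein-coding gene, and their words, as reverse complements, point left toward them. The site of AHDC1 (chr1:27663210-27663310) also lies right of its promoter in no protein-coding gene, but its word points right, away from it.
SMIM41 distal CTCF site: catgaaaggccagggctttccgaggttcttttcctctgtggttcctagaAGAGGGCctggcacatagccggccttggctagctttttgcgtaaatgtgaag
EBF1 distal CTCF site: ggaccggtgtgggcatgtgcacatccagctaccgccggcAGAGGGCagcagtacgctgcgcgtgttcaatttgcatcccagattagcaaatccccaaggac
SEMA6A distal CTCF site: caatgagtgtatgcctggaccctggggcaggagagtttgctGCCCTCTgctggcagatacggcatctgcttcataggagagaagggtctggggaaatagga
VEGFA distal CTCF site: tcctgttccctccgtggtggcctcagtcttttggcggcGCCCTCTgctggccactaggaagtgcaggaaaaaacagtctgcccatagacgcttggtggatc
AHDC1 distal CTCF site: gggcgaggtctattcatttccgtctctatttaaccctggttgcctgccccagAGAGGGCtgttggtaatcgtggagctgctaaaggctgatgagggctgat

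Other distal anchors held an SMC1 peak and no CTCF peak. The same window around the SMC1 summit is shown for the strongest such anchors of IKZF3 (chr17:39756014-39756114), just past the 3′ end of the gene, of RUNX3 (chr1:25031999-25032099), in no protein-coding gene, and of C15orf39 (chr15:75112977-75113077), in an intron of PPCDC. IKZF3 and RUNX3 encode lymphoid transcription factors. None of the 4 words occurs in these windows, so nothing is in capitals. The same was true of CTCF windows named above, such as that of CEBPB.
IKZF3 distal SMC1 site: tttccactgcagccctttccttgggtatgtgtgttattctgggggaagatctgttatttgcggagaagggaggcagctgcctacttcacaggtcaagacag
RUNX3 distal SMC1 site: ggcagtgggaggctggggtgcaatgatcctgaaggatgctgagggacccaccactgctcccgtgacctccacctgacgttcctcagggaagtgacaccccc
C15orf39 distal SMC1 site: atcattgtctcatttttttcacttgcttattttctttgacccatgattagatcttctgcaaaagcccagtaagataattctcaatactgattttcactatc

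Words of this kind were found at few sites, and more often at CTCF summits than beside them. Within 50 bp of the summit, 14.7% of 61417 CTCF peaks held a word (14.5 to 15.0), against 6.27% (6.08 to 6.46) of windows of the same length 1000 bp to the right. Among 50118 SMC1 peaks without an overlapping CTCF peak the share was 5.97% (5.77 to 6.18). At the distal anchors of members it was higher. Of 6104 distal anchors with a CTCF summit in the SMC1-labelled list, 27.0% held a word (25.9 to 28.1), and of 14663 in the CTCF-labelled list, 22.4% (21.8 to 23.1). An anchor may hold several summits, which adds to these shares.

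Where the words of a distal anchor were on 1 strand, most pointed to the promoter. This was so for 1229 of 1577 members in the SMC1-labelled list (77.9%, 75.8 to 79.9) and for 2456 of 3167 in the CTCF-labelled list (77.5%, 76.1 to 79.0). With each distal bin and side taken a single time, the shares were 74.9% of 862 (71.9 to 77.7) and 73.5% of 1745 (71.4 to 75.5). Words at the promoter anchor pointed to the distal anchor in 72.7% of 2198 members (70.8 to 74.6) and 72.0% of 4036 (70.6 to 73.4). At anchors of loops with no coding start at either end, the inward share was 79.7% of 5380 (78.6 to 80.8) and 78.6% of 12241 (77.8 to 79.3). The interval at promoter anchors thus lay below that of distal to distal anchors in both lists, while that at distal anchors overlapped it. These intervals take loops that share an anchor as separate. The promoter and distal to distal shares were not computed per distinct bin. Few members had a word at both ends. Of 247 such members in the SMC1-labelled list, 132 were convergent (53.4%, 47.2 to 59.6), 102 had both words on the same strand (41.3%) and 13 were divergent (5.26%). Of 448 in the CTCF-labelled list, 204 were convergent (45.5%, 41.0 to 50.2), 212 were on the same strand (47.3%) and 32 were divergent (7.14%).

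**Figure D1:**
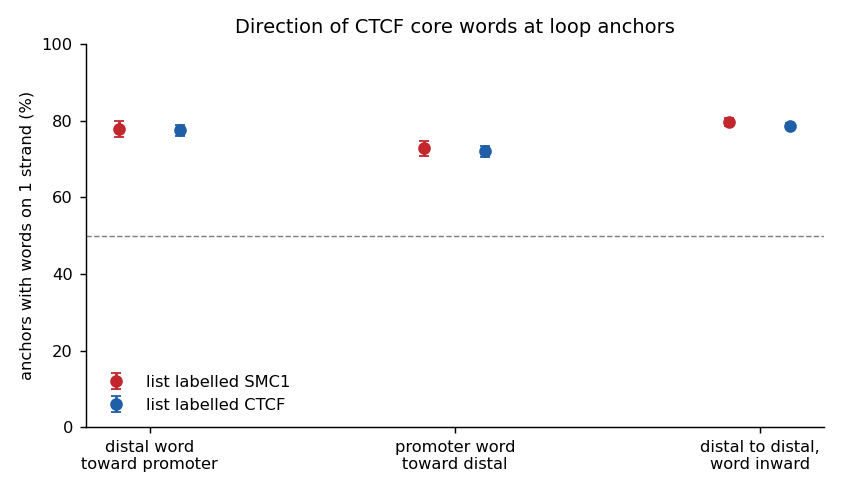
Share of anchors whose CTCF core words lie on 1 strand and point into the loop, in percent, for each loop list. Points are shares, error bars are 95% Wilson intervals and the dashed line marks 50. In both lists the promoter anchors (72.7% and 72.0%) sit below the distal to distal anchors (79.7% and 78.6%).

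Most distal anchors held overlapping SMC1 and CTCF peaks. Anchors with SMC1 alone were more common than anchors with CTCF alone, as was so among all bins with no coding start. An anchor was called shared when an SMC1 peak overlapping a CTCF peak by at least 1 bp lay in it. In the SMC1-labelled list, 67.4% of distal anchors were shared (66.5 to 68.4), 9.20% held SMC1 only (8.63 to 9.82), 2.85% CTCF only (2.53 to 3.21), 1.29% both apart from each other and 19.2% no peak. In the CTCF-labelled list, 63.0% were shared (62.4 to 63.6), 17.3% held SMC1 only (16.9 to 17.8), 1.38% CTCF only (1.24 to 1.53), 1.16% both apart and 17.1% none. Among all 534093 bins of 5 kb with no coding start within 1 kb, 6.49% were shared, 6.5% held SMC1 only, 1.87% CTCF only, 0.315% both apart and 84.8% none. Because the caller needs a peak at an anchor, the shares are best read where the promoter anchor already held a shared peak and the distal anchor was free. There, distal anchors were shared in 62.0% of 7780 members of the SMC1-labelled list (61.0 to 63.1) and in 58.2% of 18839 of the CTCF-labelled list (57.5 to 58.9). No peak lay at 22.4% (21.5 to 23.4) and 20.7% (20.2 to 21.3) of them.

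Under the same condition, distal anchors that looped to a promoter were somewhat less often shared and more often SMC1 only than anchors that looped to another distal site. In distal to distal loops with a shared peak at the other anchor, 65.8% of anchors were shared in the SMC1-labelled list (65.1 to 66.5) and 60.9% in the CTCF-labelled list (60.5 to 61.3). SMC1 only anchors took 10.7% of distal anchors of members (10.1 to 11.5) against 8.70% in distal to distal loops (8.31 to 9.10) in the former. In the latter they took 18.2% (17.6 to 18.7) against 15.0% (14.7 to 15.3). The intervals did not overlap in either list, but they take loops that share an anchor as separate. Members also spanned less than distal to distal loops, with medians of 130 and 115 kb against 150 and 145 kb. The classes at distal anchors of members varied with span, and the 2 kinds of loop were not matched for it. Whether the difference goes with the promoter or with span was not tested. With each distinct distal bin taken a single time, shared distal anchors of all members fell from 67.4% to 57.3% and from 63.0% to 53.3%. Distal to distal loops were not counted in that way. In promoter to promoter loops, the anchor facing a shared anchor was itself shared in 78.0% (76.6 to 79.3) and 71.8% (70.8 to 72.9), which is above the distal anchors of members.

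**Figure D2:**
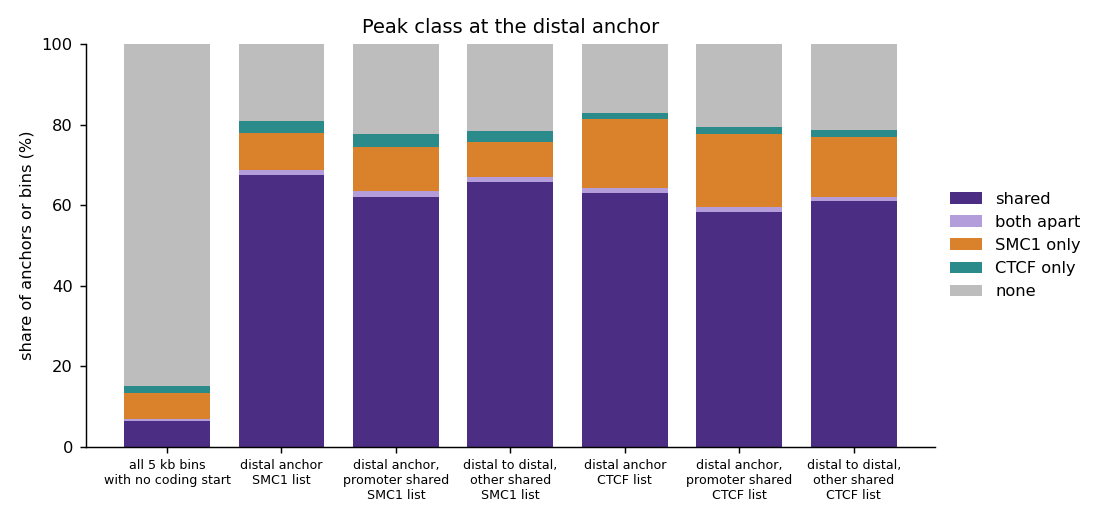
Stacked shares of peak classes, in percent, for all 5 kb bins without a coding start, for distal anchors of members, for those whose promoter anchor was shared, and for anchors of distal to distal loops whose other anchor was shared, by loop list. Shared anchors are the largest class in all loop columns and bins without a peak are 84.8% of the background column.

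Loops to SMC1 only anchors were shorter and nearer to their own gene in the CTCF-labelled list. Their median span was 95 kb (95 to 100) against 125 kb (125 to 130) for shared anchors, and their median ratio of observed to expected read pairs was 3.20 (3.16 to 3.24) against 3.96 (3.93 to 4.0). The distal bin overlapped the body of the looped gene in 32.9% of them (31.5 to 34.4) against 16.2% (15.6 to 16.8) at shared anchors. In the SMC1-labelled list the spans were closer, at 120 kb (115 to 130) and 130 kb (130 to 135), and the ratios 4.06 (3.94 to 4.19) and 3.90 (3.85 to 3.95) stood in the opposite order. The distal bin lay in the gene body at 22.6% (19.9 to 25.5) of SMC1 only and 12.4% (11.6 to 13.2) of shared anchors there. By span, SMC1 only anchors fell from 21.8% of members of 30 to 100 kb to 10.8% over 200 kb in the CTCF-labelled list, and from 9.76% (8.80 to 10.8) to 7.23% (6.23 to 8.38) in the SMC1-labelled list.

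The strongest members with SMC1 only at the distal anchor differed in their genes between the lists, and 1 was common to both. IKZF3 had 313 read pairs over 105 kb where 53.4 were expected in the CTCF-labelled list, C15orf39 had 287 over 90 kb where 47.7 were expected, and RUNX3 had 248 over 70 kb where 45.4 were expected. The same bins held 72, 82 and 69 read pairs in the SMC1-labelled list. Among the strongest there were SRSF5, which encodes a splicing factor, with 93 read pairs over 120 kb, and C15orf39. The SMC1 peak at the SRSF5 distal anchor was weak, with a −log10 q of 8.97 and a fold enrichment of 2.00. At C15orf39 these were 100 and 4.28. All of these members had a shared peak at the promoter anchor. So had 836 of 837 members with SMC1 only at the distal anchor in the SMC1-labelled list. Every member of that list held a CTCF peak at an anchor, which nearly fixes this outcome. In the CTCF-labelled list 3427 of 4178 such members had one, beside 78.2% of all its members.

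CTCF only anchors were the rarer single-target class, as among all bins with no coding start. In the SMC1-labelled list the strongest members with such an anchor were ERCC1, a DNA repair gene, with 74 read pairs over 55 kb, DHRS13 with 65 over 130 kb, and QRICH2 with 61 over 150 kb. Those in the CTCF-labelled list were FAM167A and WNK1, a kinase gene of ion transport, with 90 read pairs each, and CEBPB with 69 over 270 kb, which was 17.9 times its expected 3.86. The CEBPB bin touches a shared bin with 569 read pairs from the same promoter bin. Whether it is a contact of its own was not tested.

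Distal partners were unevenly spread over genes. A partner is a distinct 5 kb distal bin looped to any start of a gene. Of 18765 protein-coding genes, 3406 (18.2%) had a partner in the SMC1-labelled list and 7027 (37.4%) in the CTCF-labelled list, and 3128 genes had one in both. Among genes with a partner the median was 1 partner in the first list and 2 in the second, and 1787 and 2749 genes had a single one. At the other end, 133 and 348 genes had 10 or more partners, and 24 and 42 had 20 or more. Touching bins often belong to the same contact. With them merged, 22 and 43 genes kept 10 or more partners, with a maximum of 19 and 14.

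**Figure D3:**
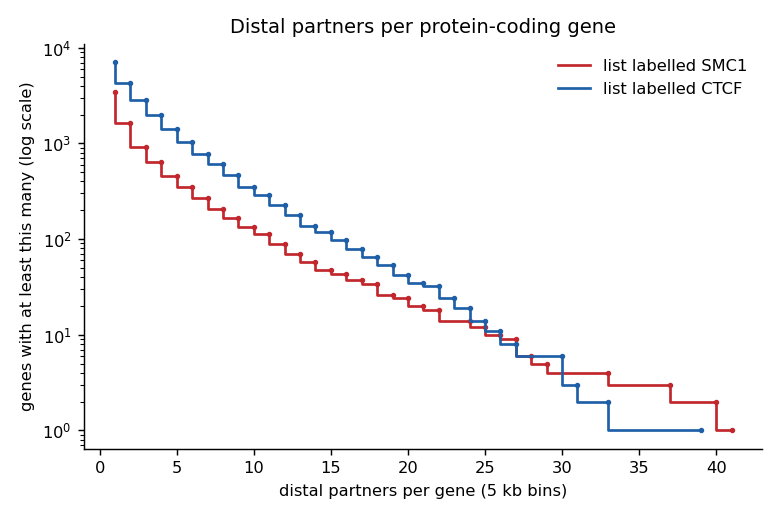
Number of protein-coding genes (log scale) with at least the number of distal partners on the horizontal axis, in 5 kb bins, for each loop list. The list labelled CTCF lies above up to about 25 partners, and the largest values are 41 in the SMC1-labelled list and 39 in the CTCF-labelled list.

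The most connected promoters fell into a few layouts, and the first was a gene beside a large gap without coding genes. MYLIP, which encodes a ubiquitin ligase that lowers the LDL receptor, had 41 partners in the SMC1-labelled list and 27 in the CTCF-labelled list, 19 of them in both. Of these, 39 and 27 lay upstream, none in a coding gene, and no coding gene was skipped. Only 3 partners were shared anchors in each list, against 17 and 16 with SMC1 only and 19 and 8 with no peak. The strongest partner lay 437 kb upstream and had 81 read pairs where 4.67 were expected and 91 where 5.13 were expected. MARCKS, an actin-binding substrate of protein kinase C, had 40 and 24 partners, 39 and 24 of them upstream and none in a coding gene. Its strongest partner, SMC1 only, lay 225 kb upstream with 80 and 187 read pairs. Most partners of both genes held no CTCF peak.

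Other promoters also looped mostly to bins in no coding gene, and IRF2BP2 and SEMA6A differed more between the lists. IRF2BP2, a corepressor partner of IRF2, had 3 partners in the SMC1-labelled list and 30 in the CTCF-labelled list, all in no coding gene, and 19 of the 30 were SMC1 only. SEMA6A, a transmembrane semaphorin, had 9 and 30 partners, all upstream in no coding gene, 14 of the 30 SMC1 only. The site printed above was its strongest, with 84 and 241 read pairs. VEGFA, the vascular growth factor, had 12 and 26 partners, 11 and 23 in no coding gene, with 115 and 171 read pairs at the strongest. CEBPB, a leucine zipper transcription factor, had 27 and 16 partners, all but 1 of the 27 downstream. A single shared anchor 272 kb downstream carried 306 read pairs where 9.07 were expected in the SMC1-labelled list and 569 where 16.9 were expected in the CTCF-labelled list. The plot of read pairs by distance shows this peak standing far above the other partners of CEBPB.

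**Figure D4:**
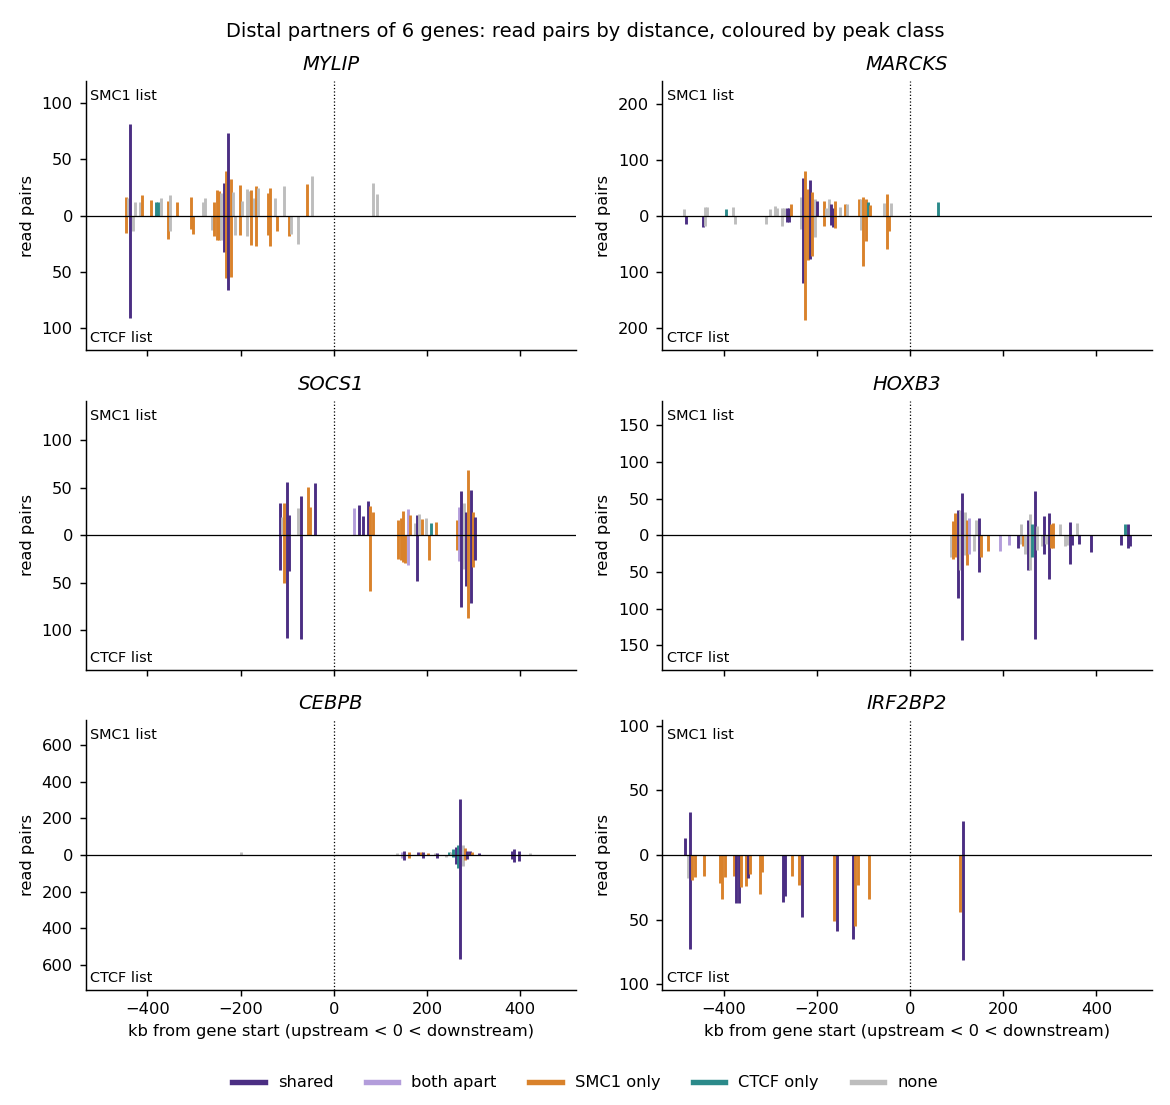
Read pairs of the distal partners of 6 genes against distance from the gene start in kb, with the SMC1-labelled list drawn up and the CTCF-labelled list drawn down and lines coloured by peak class (for several promoter bins, the strongest loop). MYLIP and MARCKS have partners nearly all upstream, CEBPB has 1 dominant partner (306 and 569 read pairs), and IRF2BP2 has 3 and 30 partners.

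A second layout was a promoter that looped into a neighbouring gene. SOCS1, a feedback inhibitor of cytokine signalling, had 37 and 22 partners, 24 and 17 of them in CLEC16A and 10 and 5 in RMI2. Its partners lay on both sides, 10 upstream and 27 downstream in the SMC1-labelled list, and 5 and 17 in the CTCF-labelled list. The strongest was an SMC1 only anchor 289 kb downstream in the former (69 read pairs, 5.99 expected) and a shared anchor 71.3 kb upstream in the latter (109 read pairs, 34.6 expected). PPA2, a mitochondrial pyrophosphatase, had 27 and 11 partners, 16 and 6 in TET2, whose product oxidises methylated cytosine. FES, a tyrosine kinase gene, had 7 and 33 partners, all upstream. In the CTCF-labelled list 13 of these lay in BLM, the helicase gene of Bloom syndrome, and 6 in CRTC3.

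The HOXB promoters looped out past the HOXB1 end of their own cluster. HOXB3 had 25 partners in the SMC1-labelled list and 39 in the CTCF-labelled list, all downstream, with 15 and 26 in SKAP1, an adaptor gene of lymphocytes, and the rest in no coding gene. HOXB5 had 22 and 31 partners, and every one was also a partner of HOXB3, whose starts share its anchors, so they count as 1 locus. The strongest partners of HOXB3 had 61 and 143 read pairs, both at shared anchors. On the way HOXB1 and HOXB2 were skipped by 42 loops each in the SMC1-labelled list, and by 83 and 81 in the CTCF-labelled list.

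Another layout was contact within a long gene. PITPNC1, a lipid transfer protein gene, had 28 and 20 partners, 27 and 20 of them in its own body. ATXN1 had 16 and 26, with 15 and 26 in its body, and GRIK4, a kainate receptor gene, had 20 and 27, with 20 and 26 in its body. ABTB2 had 9 and 30, with 7 and 19 in its body and 1 and 5 in NAT10. RAI1, a transcriptional regulator, had 27 and 20, with 12 and 13 in its body and 12 and 5 in TOM1L2.

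ACBD4 and ARPC3 sat among other genes and looped over many of them. ACBD4, an acyl-CoA binding protein gene, had 29 and 13 partners and skipped 14 and 12 distinct coding genes. Its strongest loop held 310 and 316 read pairs over 60 kb. ARPC3, a subunit of the actin-nucleating Arp2/3 complex that shares a promoter anchor with GPN3, had 26 and 10 partners and skipped 12 coding genes in each list. TRIB1, a pseudokinase gene, had 33 and 22 partners, 25 and 15 of them in NSMCE2.

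Genes of the B lineage had partners more often than the background, as counts. Of 27 such genes, 17 had a partner in the SMC1-labelled list (63.0%) and 21 in the CTCF-labelled list (77.8%), beside 18.2% and 37.4% of all coding genes. The median was 1 and 4 partners, against 0 for all coding genes in each list. IKZF3 had 18 and 14 partners, 12 and 9 of them in its own body, and had the most of these genes in the SMC1-labelled list. EBF1 had 1 and 16 partners, the most in the CTCF-labelled list, and CIITA, the regulator of MHC class II genes, had 3 and 12. EBF1 looped inside its own body with 14 of the 16, and the site printed above carried 56 and 87 read pairs. CR2 and SPI1 were among those with none in either list. The list was chosen with earlier results of these data known and no test was made on it.

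Among 28 genes of B cell activation and NF-κB, 13 (46.4%) and 19 (67.9%) had a partner. NFKBIA, the inhibitor of NF-κB, had 18 and 23 partners, 13 and 16 of them in PRORP, with 31 read pairs at the strongest in the SMC1-labelled list and 107 in the CTCF-labelled list. BCL2, the apoptosis inhibitor, had 22 and 18, of which 16 and 14 lay in its own body and 11 and 10 held SMC1 only. TNFAIP3, a brake on NF-κB signalling, had 11 and 12, all in no coding gene, with 55 and 299 read pairs at the strongest, 160 kb upstream.

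Of 25 T lineage genes, 4 (16.0%) and 10 (40.0%) had a partner, close to the shares of all coding genes. CD247, a T cell receptor chain, had 5 and 9, TCF7 had 2 and 4, and CD3G had 2 and 3. Of 26 lineage factors of tissues other than blood, 2 (7.69%) and 7 (26.9%) had a partner, among them NEUROG2 with 1 and 8, FOXA2 with 0 and 3 and MYOD1 with 1 and 1. Of 29 ribosomal protein genes, 10 (34.5%) and 13 (44.8%) had a partner. RPL11 had 5 and 5, RPL3 had 6 and 4, and RPL10A had 4 and 3.

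Most members passed over at least 1 coding gene. No such share was computed for other loops or bin pairs of the same span. Whether skipping is particular to members was thus not tested. A skipped gene has a protein-coding start between the anchors and none at the promoter anchor. In the SMC1-labelled list, 68.8% of members skipped a gene (67.9 to 69.8) and 12.6% skipped 5 or more (11.9 to 13.3). In the CTCF-labelled list, 56.5% (55.9 to 57.1) and 6.82% (6.51 to 7.14) did. The median was 1 and the highest 27 in each list. The share rose with span, from 57.5% (55.8 to 59.1) at 30 to 100 kb to 79.1% (77.3 to 80.7) over 200 kb in the SMC1-labelled list, and from 44.9% (43.9 to 45.8) to 71.8% (70.6 to 73.0) in the CTCF-labelled list. It also varied by peak class. At SMC1 only distal anchors 53.3% (49.9 to 56.6) and 37.8% (36.4 to 39.3) skipped a gene, against 71.0% (69.9 to 72.2) and 62.2% (61.5 to 63.0) at shared ones.

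The longest rows of skipped genes lay in dense gene clusters. TRPM4, a cation channel gene, looped over 420 kb and 27 coding genes, among them BAX, FTL and the chorionic gonadotropin genes, with 15 and 22 read pairs. TUT1, a terminal uridylyltransferase gene, looped over 270 kb and 27 genes with 27 read pairs in the CTCF-labelled list. TINF2, a telomere protein gene, skipped 22 over 230 kb with 18 read pairs in the SMC1-labelled list. DHRS1 and NOP9, which share an anchor, skipped 25 to the same distal bin as TINF2 with 23 read pairs in the CTCF-labelled list. TMEM141 skipped 19 over 270 kb with 16 read pairs in the SMC1-labelled list. All of these joined shared anchors, and their counts were low beside those of the strongest members. SMIM41 had 361 and 830 read pairs over 55 kb and skipped ATG101 and NR4A1. VPS18, a subunit of endosomal tethering complexes, had 318 and 675 over 35 kb and skipped RHOV. AHDC1 had 228 and 743 over 55 kb and skipped FGR, a SRC family kinase gene.

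Of 4625 genes skipped in the SMC1-labelled list, 3042 had no distal partner of their own there, and of 7711 in the CTCF-labelled list, 3952 had none. Of all 18765 coding genes, 3406 (18.2%) and 7027 (37.4%) had a partner. Lacking one was thus more common among all coding genes than among skipped genes, in both lists. Beside the HOXB genes, those skipped by most loops in the SMC1-labelled list included CBFB, the partner subunit of RUNX proteins, skipped by 34 loops with no partner of its own. RMI2 was skipped by 32, all from SOCS1. In the CTCF-labelled list they included FURIN, a protease gene next to FES, skipped by 38 and with 2 partners of its own. These genes were picked after their values were seen.

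The gene nearest to a distal anchor was usually not the gene it contacted. The nearest coding start belonged to a looped gene in 16.0% of members of the SMC1-labelled list (15.3 to 16.8) and in 25.4% of the CTCF-labelled list (24.9 to 26.0). The median distance from the middle of the distal bin to that start was 16.3 kb (15.8 to 16.7) and 20.9 kb (20.5 to 21.4). Members span over 30 kb, so a start this near could count only as another start of a looped gene. The span rule thus bounds the share of looped nearest genes, also where it is split by span. No background share was computed. The share fell with span, from 25.2% (23.8 to 26.7) to 7.27% (6.27 to 8.42) in the SMC1-labelled list, and from 35.8% (34.8 to 36.7) to 11.9% (11.0 to 12.7) in the CTCF-labelled list. It depended on the gene body. Where the distal bin overlapped the body of the looped gene, the nearest start was its own in 65.8% (63.1 to 68.3) and 75.1% (73.9 to 76.3) of members. Elsewhere it was in 7.94% (7.36 to 8.56) and 12.6% (12.1 to 13.1). Such overlap was seen in 14.0% (13.3 to 14.7) and 20.6% (20.1 to 21.1) of members. By class, the nearest gene was the looped gene at 25.4% (22.6 to 28.5) and 40.5% (38.97 to 41.95) of SMC1 only anchors, and at 15.1% (14.2 to 16.0) and 21.1% (20.5 to 21.8) of shared anchors.

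**Figure D5:**
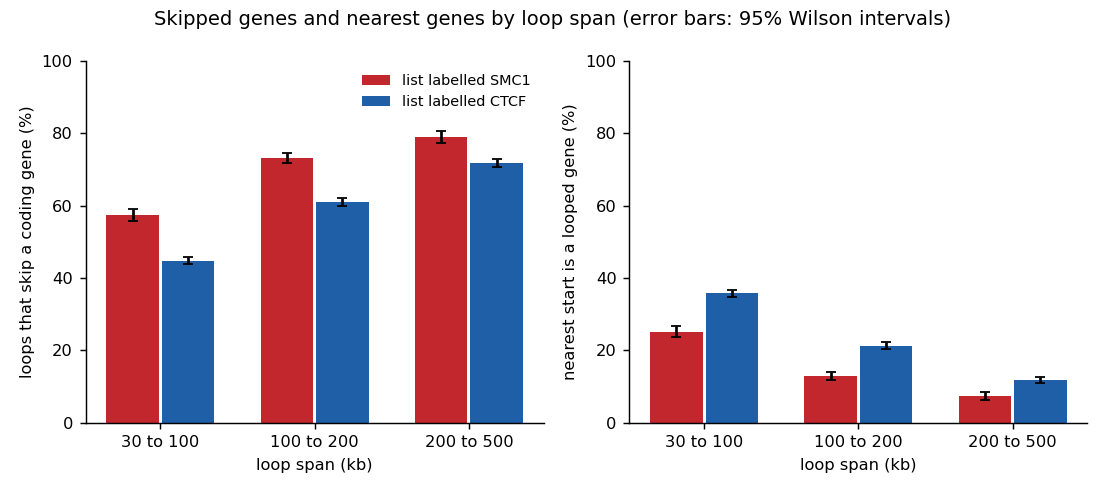
Share of members that skip a coding gene (left) and whose nearest coding start is a looped gene (right), in percent, by loop span in kb for each loop list, with 95% Wilson intervals. The first share rises with span (57.5% to 79.1% and 44.9% to 71.8%) while the second falls.

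Distal anchors lay on both sides of the start in similar numbers. For promoters with genes of 1 strand, the distal anchor was downstream in 53.8% (52.8 to 54.9) of 8406 and 53.8% (53.1 to 54.4) of 22298 members. Without anchors in the looped gene's own body the shares were 47.9% (46.7 to 49.0) and 45.1% (44.4 to 45.9). A gene body lies downstream of the gene's first start, so this step removes mostly downstream anchors. The fall was thus set by the rule, and no preference for a side is read from it. A lncRNA start lay within 1 kb of 10.02% (9.42 to 10.7) and 9.13% (8.77 to 9.50) of distal anchors, so these are distal to coding genes only.

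Some distal bins served many promoters. Of 6516 distinct distal bins in the SMC1-labelled list, 5082 looped to 1 gene and 103 to 5 or more. Of 16304 in the CTCF-labelled list, 12434 and 201 did. The bins with most genes, picked after their values were seen, lay beside the γ-protocadherin cluster, whose genes encode neuronal adhesion proteins with alternative promoters. chr5:141560001-141565000 looped to 11 genes in the SMC1-labelled list, all of that cluster, and chr5:141555001-141560000 to 15 in the CTCF-labelled list, 14 of the cluster and TAF7. chr12:55735001-55740000 looped to 14 genes in the CTCF-labelled list, among them CDK2, PMEL and RPS26. Every one of these bins held a shared peak.

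Members were on average of intermediate length and strength between the other kinds of loop. Their median span was 130 kb (125 to 130) in the SMC1-labelled list and 115 kb (115 to 120) in the CTCF-labelled list. Promoter to promoter loops spanned 110 kb (110 to 115) and 95 kb (90 to 95), and distal to distal loops 150 kb (145 to 150) and 145 kb (145 to 145). The median ratio of observed to expected read pairs was 3.95 (3.91 to 3.98) and 3.84 (3.81 to 3.86) for members. It was 3.54 (3.49 to 3.62) and 3.58 (3.54 to 3.64) for promoter to promoter loops, and 4.36 (4.32 to 4.40) and 4.38 (4.36 to 4.41) for distal to distal loops. Members held a median of 22 and 24 read pairs, with a lowest value of 12 in each list, and 249099 and 805572 in all. The median was 23 and 25 for promoter to promoter loops and 20 and 21 for distal to distal loops. By read pairs the kinds thus stood in the reverse order of the ratios.

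The lists overlapped unequally. In all, 6525 members had the same bins in both, which is 71.8% of the SMC1-labelled list (70.8 to 72.7) and 27.1% of the CTCF-labelled list (26.5 to 27.7). The lists hold 9093 and 24082 members, so their sizes alone keep the second share below the first. At these the CTCF-labelled list held a median of 1.57 times the read pairs of the other, and it held more read pairs in total. By distal class, 78.0% (77.0 to 79.0) of members of the SMC1-labelled list with a shared anchor recurred in the CTCF-labelled list, 74.3% (71.2 to 77.2) with SMC1 only, 54.3% (51.9 to 56.6) with none and 41.3% (35.5 to 47.4) with CTCF only. In the other direction the shares were 31.5% (30.8 to 32.3), 14.9% (13.8 to 16.0), 22.98% (21.7 to 24.3) and 32.2% (27.4 to 37.4). The number of members of each class in the smaller list bounds these too.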

How the data were processed

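HiChIP of SMC1 (FA-EGS) and CTCF (FA) in HG00731 was read from the authors' deposited pooled lists. Replicates had been merged, so the lists carry no replicate error. The peak lists, called by the authors with MACS3 (version 3.0.1 per the labels), hold 94628 SMC1 and 61417 CTCF peaks on chromosomes 1 to 22, with fold enrichment as a ratio and the q-value as −log10 in the deposited columns. The loop lists, called by the authors with nf-HiChIP, which is built on MAPS, hold the deposited count of read pairs and the expected value for each pair of 5 kb bins of hg38. All loop and peak ends lay inside the chromosomes of the hg38 sequence used here. No per-sample file was analysed here and the library depth is not used.

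Members, partners, skipped genes and peak classes were computed in Python 3.11.15 with pandas 2.3.3, NumPy 2.4.6 and SciPy 1.17.1 against GENCODE v44, and checked on simulated loops. Shares carry Wilson intervals and medians binomial rank intervals, both at 95%. The upper limit for a count of 0 is 3 counts. Genes named are the 10 with most partners in each list (ties by summed read pairs), the 3 of each gene list with most partners, and the 3 loops of each list with most read pairs, with most skipped genes, and with most read pairs to SMC1 only or CTCF only anchors. Other named genes are said to be picked later or illustrate a list. Members and lists were chosen with earlier results of these data known. No test was made, since each target has 1 pooled list. Of the genes this rule names, 1 is not reported here.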

Additional observations from a re-analysis of the deposited data

How the results depend on the processing

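No paired analysis was possible because the replicates of each target were pooled before deposit and no result comes from a test, and for the same reason no replicate could be left out. Values are given for the SMC1-labelled list and then the CTCF-labelled list. With starts required inside the anchor, members that skip a gene moved to 70.1% and 58.1%, the nearest gene was the looped gene in 24.3% of the latter list, and shared distal anchors moved to 66.2% and 62.0%. With Ensembl canonical transcripts only, these became 67.9% and 55.7%, 12.4% and 20.7%, and 65.5% and 61.7%. Among loops with at least the median read pairs, members fell to 4907 and 12900, genes with a partner to 2254 in the former list, skipping to 52.3% in the latter, nearest genes rose to 28.4% in the latter, shared distal anchors to 72.7% and 70.4%, and the overlap of the lists to 73.9% and 28.1%. With the loop lists exchanged, every value takes that of the other list: 24082 and 9093 members, 7027 and 3406 genes with a partner, 56.5% and 68.8% skipping, 25.4% and 16.0% nearest, 63.0% and 67.4% shared, and 27.1% and 71.8% in both lists. Counting genes of any biotype, 92.3% and 87.8% of members skipped a gene. Shared distal anchors were 62.0% and 57.2% when a summit had to lie in the bin, 62.6% and 57.6% with peaks of −log10 q of at least 10, and 57.3% and 53.3% with each distinct bin taken a single time. Where each anchor could be off by 15 kb, 91.4% and 50.8% of members were in both lists. The share of words that point to the promoter stayed within its interval for strong loops, exchanged lists, a window of 25 bp and strong CTCF peaks, but fell below it, to 74.9% and 73.5%, with each distinct distal bin and side taken a single time, an alternative chosen after seeing the data. Of 68 alternative values in all, 45 moved out of the interval of the reported share or by over 1.5 times the reported count or mean, and 23 did not. Merging touching distal bins lowered the mean number of partners from 2.60 to 1.81 and from 3.16 to 2.09. The causes of these moves were not tested, other than that fewer loops or genes enter where the rule is stricter. Loops near the lowest count of 12 read pairs rest on few reads, which limits partners seen in a single loop.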

Other observations

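Members were not spread over chromosomes in proportion to coding genes. Per 100 protein-coding genes, chromosome 17 held 79.6 members in the SMC1-labelled list and 157 in the CTCF-labelled list, chromosome 19 held 70.4 and 116, and chromosome 13 held 18.8 and 80.3. Chromosome 18, with 262 coding genes, had the highest value in the CTCF-labelled list, at 188, and 44.7 in the SMC1-labelled list. No test was made on these values, and counts of all loops per chromosome were not set beside them.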
